A study of Mus musculus with 2 samples.

Results

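The heat shock chaperones described here comprise stress-induced and housekeeping genes: Hspa1a, Hspa1b, Hspa8, Hsph1, Hsp90aa1, Hspb1, Hspd1, Hspe1, Dnajb1 and Dnajb14. They are 10 of the 31053 genes in a single-cell count matrix of mouse small intestinal organoids, taken as listed rows over barcodes of 500 or more genes, 1000 or more UMIs (unique molecular identifiers) and no more than 20% mitochondrial UMIs. The genes were chosen by measured values of these data, their levels by cell class and by barcode suffix. All levels below are therefore descriptions without a test.

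Chaperones bind unfolded protein chains and help them to fold. Hsp70 proteins (Hspa1a, Hspa1b, Hspa8) work in ATP-driven cycles that J proteins (Dnajb1, Dnajb14) start and that the Hsp110 protein Hsph1 resets, Hsp90 (Hsp90aa1) finishes many client proteins, Hspb1 is an ATP-independent holder of unfolded proteins, and Hspd1 with its lid Hspe1 forms the folding chamber of mitochondria. On heat or other proteotoxic stress the transcription factor HSF1 binds heat shock elements, which are inverted GAA repeats, and switches on the inducible members, of which the Hspa1a and Hspa1b copies are the standard read-out.

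The study grew small intestinal organoids, which are cultured epithelial structures with crypt and villus cell types, without additive (control) or with melatonin, and its title asks about regenerative epithelial cells controlled by YAP and prostaglandin E2. Cells of 3 organoid lines were pooled per group on culture day 3, giving 1 control and 1 melatonin library of droplet-based 3′ RNA sequencing. The labels give no strain, genotype, sex or age of the mice and no spelled-out dose of melatonin. The files of the control and the melatonin sample were identical byte for byte (3 of 3 kinds), so both hold 1 matrix of 21806 barcodes.

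Each barcode carries the suffix 1 or 2, named set 1 and set 2 here after the suffix alone, and no label ties a suffix to a treatment. No comparison of control with melatonin was made, ratios are set 2 over set 1, and that direction is arbitrary. Of the barcodes, 4066 passed the limits as cells (2300 in set 1 and 1766 in set 2), with median depths of 29872 and 28759 UMIs and median mitochondrial shares of 9.29% and 9.08%. No barcode sequence occurred in both sets among them. Levels are UMIs of a gene per 1000000 UMIs, both summed over the cells of a set (CPM). Every interval is a 95% interval of the counting alone, since cells of 1 pool are not replicates. As a check of the labelled tissue, markers of epithelial cell classes were detected in both sets, while summed markers of tuft, immune and mesenchymal cells stayed at or below 4.32 CPM, with Ptprc, Col3a1 and Dcn at 0 in both sets.

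The stretches of 250 bases before the transcription start of the inducible Hsp70 pair and of Hspe1 are shown because they carry the inverted GAA repeats that name this response, and that of Dnajb14 because this member was past 1.5-fold lower in set 2 and holds none. They come from RefSeq on GRCm38.p6, run 5′ to 3′ on the gene's strand, and capitals mark the matches to GAANNTTC or TTCNNGAA. Both motifs read the same on either strand and may overlap. Hspa1a lies at chr17:34972157-34972406 (minus strand), Hspa1b at chr17:34959239-34959488 (minus strand), Hspe1 at chr1:55087898-55088147 (plus strand) and Dnajb14 at chr3:137867425-137867674 (plus strand).
Hspa1a: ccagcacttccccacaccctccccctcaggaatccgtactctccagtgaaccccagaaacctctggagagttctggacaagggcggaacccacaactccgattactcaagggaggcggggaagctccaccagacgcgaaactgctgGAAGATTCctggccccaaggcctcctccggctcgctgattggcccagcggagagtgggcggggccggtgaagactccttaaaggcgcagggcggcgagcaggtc
Hspa1b: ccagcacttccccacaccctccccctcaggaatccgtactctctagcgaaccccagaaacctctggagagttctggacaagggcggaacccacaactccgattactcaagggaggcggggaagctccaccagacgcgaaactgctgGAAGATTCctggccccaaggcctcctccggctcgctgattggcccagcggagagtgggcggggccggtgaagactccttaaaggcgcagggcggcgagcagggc
Hspe1: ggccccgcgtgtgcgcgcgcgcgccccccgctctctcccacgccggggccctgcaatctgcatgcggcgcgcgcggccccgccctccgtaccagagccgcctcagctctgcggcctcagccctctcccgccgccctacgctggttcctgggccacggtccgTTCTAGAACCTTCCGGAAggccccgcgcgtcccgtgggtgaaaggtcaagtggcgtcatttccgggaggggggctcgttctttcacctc
Dnajb14: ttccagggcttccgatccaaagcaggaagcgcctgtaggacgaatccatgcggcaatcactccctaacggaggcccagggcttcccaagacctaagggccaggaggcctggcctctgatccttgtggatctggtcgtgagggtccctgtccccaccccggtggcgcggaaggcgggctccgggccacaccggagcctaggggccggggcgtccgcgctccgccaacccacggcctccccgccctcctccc

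Hspa1a and Hspa1b, neighbours on chromosome 17, differed at 3 of these 250 bases (98.8% identical), and each held 1 match. Hspe1 held 3 overlapping matches in 1 stretch. The same stretch lies before the second listed start site of Hspd1, the gene next to it on chromosome 1, which has 0 matches before its first listed start site. Hspb1 held 2 matches, Hsph1 held 1, and Dnajb1 and Dnajb14 held 0. By gene, 6 of the 8 members found in the promoter table held a match before any listed start site, as did 14.5% of all 27025 genes of the table, and Hspd1 counts only through the stretch it shares with Hspe1. By stretch, 7 of the members' 11 held a match, as did 12.8% of all 32851 stretches of this length, of which 1.46% held 2 or more. A match is a string of letters and was not tested as a binding site.

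The 3′ ends decide which copy a UMI is given to. Over the last 400 bases of the GENCODE M21 transcripts, 0 of 351 windows of 50 bases in Hspa1a occurred in Hspa1b, although 58.8% of the windows of the whole Hspa1a transcript did. The corresponding windows of Hspa8, Hspe1 and Hspb1 were shared with other genes in 76.6%, 59.8% and 19.7% of cases, with 11, 5 and 1 other genes, among them the pseudogenes Hspe1-ps1 and Hsp25-ps1. The counts of those 3 members are uncertain to the extent that such reads were dropped or split. For the other members no window was shared.

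The inducible Hsp70 genes were low in most cells and very high in a few. Hspa1a, a stress-induced Hsp70, stood at 91.3 CPM in set 1 (interval 88.9 to 93.7) and 117 CPM in set 2 (114 to 120). Its near copy Hspa1b stood at 56.2 CPM (54.3 to 58.1) and 76.5 CPM (74.2 to 79.0). Set 2 was higher for both, by 0.36 and 0.44 on the log2 scale of CPM plus 1.

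A UMI of Hspa1a was found in 649 of 2300 cells of set 1 (28.2%) and 671 of 1766 cells of set 2 (38.0%), and the median cell had 0 in both sets. The highest cell reached 4300 CPM in set 1 and 2297 CPM in set 2. That maximum alone does not set Hspa1a apart: Dnajb14 reached 4304 and 938 CPM, and Hsp90aa1 7606 and 8295 CPM. In set 1 the 115 cells making up the top 5% held 57.5% of the UMIs of both genes, and in set 2 the top 89 cells held 41.6%. For Hspa8, the constitutive Hsp70, the corresponding shares were 7.54% and 10.3%. Of the cells with Hspa1a, 60.2% in set 1 and 69.7% in set 2 also had Hspa1b, which was found in 30.7% and 44.1% of all cells. Neither gene was found in 58.1% and 44.4% of all cells. These are shares with at least 1 UMI, not corrected for depth.

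The top cells had median mitochondrial shares of 8.34% against 9.34% in the other kept cells of set 1, and of 7.88% against 9.17% in set 2. In set 1 they were drawn above all from enteroendocrine-like cells, with 35 of 115 (30.4%) where that class made up 12.2% of the set, and from S phase cells, with 28 (24.3%) against 8.35%. In set 2, 24 of the 89 were S phase cells (27.0% against 17.4%), while enteroendocrine-like cells, with 13 (14.6% against 15.7%), held about their share of the set. Which cells stood highest for Hsp70 thus differed between the sets.

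With each cell thinned to 2000 UMIs, which left out 265 shallower cells of set 1 and 77 of set 2, Hspa1a was expected in 10.3% and 13.1% of cells. Chgb, an enteroendocrine secretory protein, served as a gauge of free RNA in droplets. At that depth it was expected in 96.7% and 96.9% of enteroendocrine-like cells, in 8.14% to 10.5% of enterocyte-like, crypt stem-like, dividing and S phase cells, in 18.5% and 10.4% of revival-like cells, and in 42.4% and 54.0% of goblet and Paneth-like cells. Fabp1, a fatty acid binding protein of enterocytes, was expected in 9.97% to 45.8% of the cells of other named classes, with the most in S phase cells of set 1. Single UMIs of Hspa1a in a cell are therefore not read as expression here. Shares of cells with a UMI describe detection only, and levels are summed over cells.

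Summed over all cells, the partners of inducible Hsp70 were higher in set 2 as well. Dnajb1, the stress-induced J protein that hands clients to Hsp70, was at 50.3 CPM in set 1 and 61.0 CPM in set 2 (log2 ratio 0.27). Hsph1, the Hsp110 nucleotide exchange factor, was at 30.9 and 39.1 CPM (0.33). Hsp90aa1, the inducible cytosolic Hsp90, was at 782 and 845 CPM (0.11). None of these 3 passed a fold of 1.5.

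Hspa8, which serves all cells without stress, was at 1589 CPM in set 1 and 1787 CPM in set 2 (0.17) and was found in 98.3% and 98.8% of cells. The mitochondrial pair was slightly lower in set 2: Hspd1, the chamber, at 758 and 717 CPM (-0.08) and Hspe1, its lid, at 1116 and 1031 CPM (-0.11). Levels are counts of 3′ ends without a scale per length and are not ranked between genes.

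Hspb1, the small heat shock protein, was almost absent from these cells: 113 UMIs in 55 cells of set 1 (1.83 CPM) and 192 UMIs in 47 cells of set 2 (3.76 CPM, log2 ratio 0.75). The 3 cells with the most held 28.3% and 31.3% of them, and without those cells the ratio was 0.63. Dnajb14, a J protein of the endoplasmic reticulum membrane, went the other way, from 105 CPM in set 1 (103 to 108) to 54.3 CPM in set 2 (52.3 to 56.4), a log2 ratio of -0.94. It was found in 63.9% and 58.7% of cells, and its top 5% of cells held 15.6% and 25.9% of its UMIs.

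Between the sets 1 member was more than 1.5-fold higher (Hspb1), 1 lower (Dnajb14) and 8 were within that fold, where 3.86% of 15474 genes with at least 10 UMIs passed it in either direction (2.46% higher and 1.4% lower). The median ratio was 0.22 over the members and 0.03 over all genes. These values come from the contrast that chose the list and are given without a reading.

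**Figure D1:**
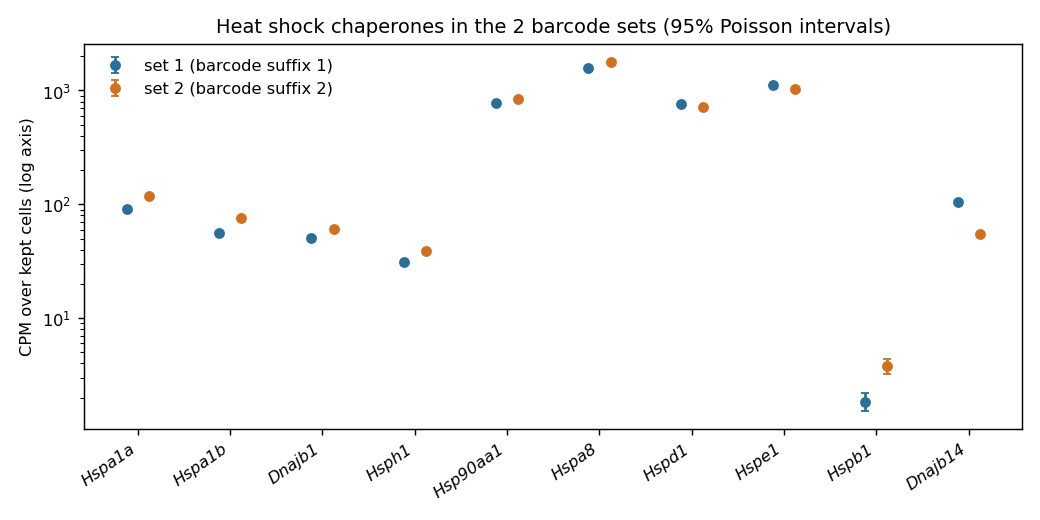
Levels of the 10 genes in CPM on a log axis for the cells of set 1 (blue) and set 2 (orange), with 95% Poisson intervals that are mostly smaller than the points. Dnajb14 falls from 105 to 54.3 CPM, Hspb1 lies below 4 CPM in both sets, and the others shift by less than 1.5-fold.

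Cells were assigned to a class by fixed marker genes, none of them a member: a cell took the class of its highest marker score where that score was at least 1 SD above the mean of all kept cells. This gave 280 and 277 enteroendocrine-like (hormone-secreting) cells in sets 1 and 2, 116 and 173 enterocyte-like (absorptive), 331 and 95 crypt stem-like, 438 and 271 dividing (G2 and mitosis), 192 and 308 S phase, and 832 and 552 cells of no class. Goblet and Paneth-like (76 and 44) and revival-like cells (35 and 46) fell below 50 cells in a set and are given as levels only. Somatostatin (Sst), a hormone gene, led the goblet and Paneth-like cells by fold. Enteroendocrine-like cells were shallower, with median UMIs of 14289.5 and 14818, and enterocyte-like cells had the higher mitochondrial shares, 13.9% and 14.3%.

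In enteroendocrine-like cells of both sets Dnajb1 and Hsph1 were higher and the mitochondrial pair lower than in the other cells. Dnajb1 was at 201 CPM there against 39.3 CPM in the other cells of set 1, and at 140 against 53.6 CPM in set 2 (log2 ratios 2.32 and 1.37). Hsph1 was at 66.3 against 28.3 CPM and at 72.3 against 35.9 CPM (1.20 and 0.99). For both genes this was the highest class in each set, with an interval that did not overlap that of the next class.

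Hspd1 was at 196 against 799 CPM in set 1 and 207 against 765 CPM in set 2, and Hspe1 at 348 against 1172 and 334 against 1097 CPM. Enteroendocrine-like cells were the lowest class for both. Hsp90aa1 was at 1372 against 738 CPM in set 1 and 1135 against 818 CPM in set 2, past 1.5-fold only in the first. In all, 2 members were higher and 2 lower by 1.5-fold in both sets, where 36.2% of 13863 genes were higher and 15% lower, 51.2% in either direction. With so many genes past the fold in this class, the count of members is not a result about chaperones, and their sizes are given as a description.

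Enterocyte-like cells were low in the mitochondrial pair as well. Hspd1 was at 337 against 781 CPM in set 1 and 311 against 768 CPM in set 2, and Hspe1 at 582 against 1146 and 456 against 1105 CPM. Most of these cells had mitochondrial shares over 10%, where Hspd1 was at 321 and 279 CPM and Hspe1 at 554 and 420 CPM. In the 17 and 20 cells with up to 10%, Hspd1 was higher, at 470 and 612 CPM, as was Hspe1, at 818 and 792 CPM. Dnajb14 had its lowest level in enterocyte-like cells, at 28.3 against 109 CPM and 22.0 against 58.4 CPM, though in set 2 its interval overlapped that of the next class, the revival-like cells. By the fold alone 4 members were lower and 0 higher in both sets, where 11.5% of genes were higher and 28.4% lower, 39.9% in either direction. The fourth was Hspb1, whose 1 UMI in these cells of set 1 and 0 in set 2 cannot show a lower level. With a pseudocount of 10 CPM, or among genes of at least 10 CPM, the count was 3. Dnajb1 was second highest here, at 110 and 85.0 CPM, past the fold over the other cells in set 1 but not in set 2 (log2 ratios 1.20 and 0.55).

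S phase cells had high inducible Hsp70: Hspa1a was at 244 against 76.7 CPM in set 1 and 171 against 105 CPM in set 2, and Hspa1b at 128 against 49.3 and 111 against 68.8 CPM. Those were the 2 members past 1.5-fold there, both higher, where 1.94% of genes were higher and 8.43% lower, 10.4% in either direction. Crypt stem-like cells were low: Hspa1a was at 28.2 against 105 CPM in set 1 and 31.4 against 122 CPM in set 2, Hspa1b at 20.7 against 63.7 and 31.4 against 79.1 CPM, and Dnajb1 at 26.5 against 55.4 and 30.3 against 62.7 CPM. In set 2 the interval of Hspa1a there overlapped that of enterocyte-like cells (35.7 CPM), and that of Hspa1b overlapped that of goblet and Paneth-like cells (38.2 CPM).

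Dnajb14 was higher in crypt stem-like cells, at 152 against 95.1 CPM in set 1 and 93.7 against 52.1 CPM in set 2. It was the tenth of the genes leading that class by fold. In set 2 it was also past 1.5-fold higher in enteroendocrine-like cells, at 100.9 CPM, where set 1 had 96.5 against 106 CPM (-0.13). Among crypt stem-like cells 1 member was higher and 3 lower in both sets, where 0.534% of genes were higher and 7.88% lower, 8.42% in either direction. Among dividing cells no member passed the fold in both sets, where 10.4% of genes did (1.21% higher and 9.17% lower). Among cells of no class 1 member did, Dnajb1, lower at 33.7 against 58.2 and 43.8 against 68.5 CPM, where 9.54% of genes did (0.0144% higher and 9.52% lower). S phase cells were also the highest class for the mitochondrial pair, with Hspe1 at 1343 and 1333 CPM and Hspd1 at 929 and 943 CPM.

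Hspa8 varied least by class. Its lowest level was in enteroendocrine-like cells, at 1375 and 1372 CPM, and its highest in revival-like cells, at 2006 and 2088 CPM, where the interval overlapped that of S phase cells in both sets. The lowest level overlapped that of goblet and Paneth-like cells in both sets (1378 and 1374 CPM). Revival-like cells, marked by genes such as Clu and Anxa1 that mark injury-responsive epithelium, had 250 and 297 CPM of the summed Hsp70 copies, but 3 cells held 83.4% and 43.1% of those UMIs. Goblet and Paneth-like cells had 114 and 100 CPM, with 64.9% and 70.5% in 3 cells.

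**Figure D2:**
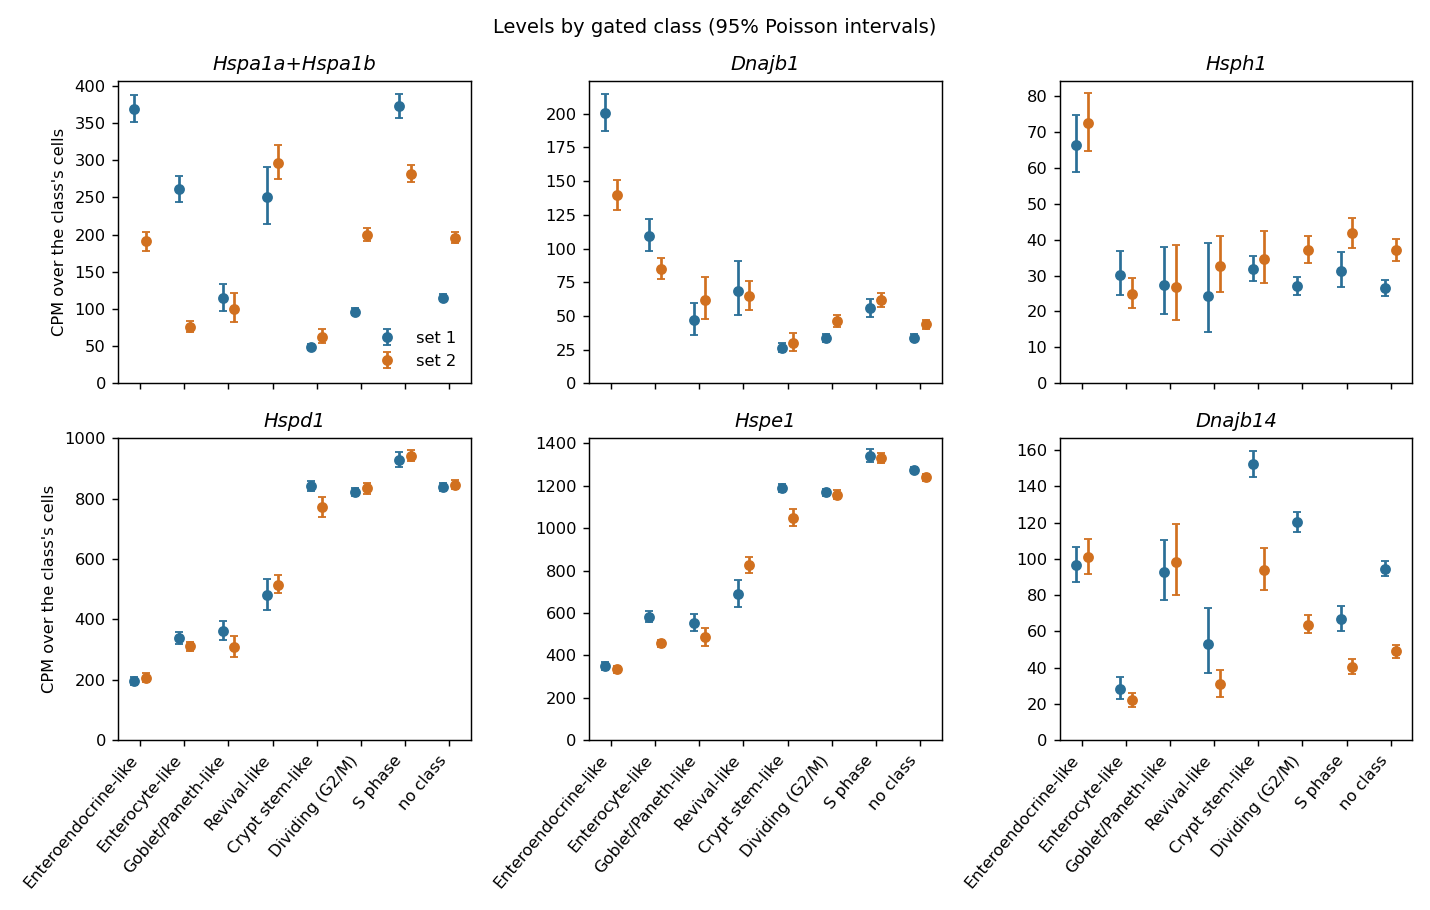
CPM of 6 genes or sums (panels, linear axes from 0) over the cells of each marker-gated class in set 1 (blue) and set 2 (orange), with 95% Poisson intervals for counting error. Dnajb1 and Hsph1 peak in enteroendocrine-like cells, where Hspd1 and Hspe1 are lowest, and the summed Hspa1a and Hspa1b level changes its order of classes between the sets.

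Within classes, the inducible Hsp70 genes did not shift one way between the sets. Summed over Hspa1a and Hspa1b, enteroendocrine-like cells went from 369 CPM in set 1 to 191 CPM in set 2 (log2 ratio -0.95), and enterocyte-like cells from 261 to 76.5 CPM (-1.76). Dividing cells went the other way, from 96.6 to 200 CPM (1.04), as did cells of no class, from 115 to 196 CPM (0.76). S phase cells went from 373 to 282 CPM (-0.40) and crypt stem-like cells from 49.0 to 62.7 CPM (0.35). The higher level of set 2 over all cells was thus made up of classes of both directions.

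In enterocyte-like cells the 3 cells with the most held 28.8% of the UMIs in set 1 and 16.1% in set 2, and the log2 ratio without them was -1.52. When cells over 10% were instead left out before the classes were assigned, the enterocyte-like ratio was -0.38. In enteroendocrine-like cells 3 cells held 16.5% and 17.2%, and the ratio without them was -0.96. With cells over several gates left out it was -0.53, no longer past 1.5-fold.

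Split at a mitochondrial share of 10%, several of these shifts were present on 1 side only. Dividing cells with up to 10% went from 98.7 CPM (293 cells) to 246 CPM (166 cells), while those above were at 91.5 CPM (145 cells) and 89.9 CPM (105 cells). Enteroendocrine-like cells with up to 10% went from 389 to 173 CPM, while those above were at 293 (59 cells) and 267 CPM (60 cells) with overlapping intervals. Crypt stem-like cells were at 45.4 and 72.6 CPM up to 10% and at 56.1 and 52.5 CPM above, the latter with overlapping intervals.

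The other 3 classes moved the same way on both sides. Enterocyte-like cells were at 295 CPM (17 cells) and 66.0 CPM (20 cells) up to 10% and at 257 (99 cells) and 77.6 CPM (153 cells) above. S phase cells were at 353 and 313 CPM up to 10% and at 408 and 202 CPM above, and cells of no class at 110 and 204 CPM and at 124 and 175 CPM.

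Dnajb14 was lower in set 2 in 5 of the 6 classes: crypt stem-like cells went from 152 to 93.7 CPM (-0.69), dividing cells from 120 to 63.7 CPM (-0.90), S phase cells from 66.9 to 40.4 CPM (-0.71), cells of no class from 94.5 to 49.0 CPM (-0.93) and enterocyte-like cells from 28.3 to 22.0 CPM (-0.35, intervals overlapping). Enteroendocrine-like cells were at 96.5 and 100.9 CPM (0.06). This member thus shifted in crypt classes and in cells of no class, and not beyond counting error in enteroendocrine-like or enterocyte-like cells. Weighting set 2 to the class mix of set 1 moved the Dnajb14 ratio over all cells from -0.94 to -0.73. It moved that of the summed Hsp70 genes from 0.39 to 0.23 and that of Dnajb1 from 0.27 to 0.07. Of the ratios of the members and the Hsp70 sum, 8 moved by more than the counting interval and 3 did not.

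Dnajb1 and Hsp90aa1 also differed in direction by class. Dnajb1 was lower in set 2 in enteroendocrine-like cells, its highest class (-0.52, interval -0.67 to -0.37), and in enterocyte-like cells (-0.36), and higher in dividing cells (0.45) and cells of no class (0.37). Hsp90aa1 was lower in enteroendocrine-like, enterocyte-like and crypt stem-like cells (-0.27, -0.33 and -0.09) and higher in dividing cells, S phase cells and cells of no class (0.21, 0.11 and 0.19). Hsph1 was higher in those 3 classes (0.44, 0.40 and 0.47), and its intervals in the other 3 included 0.

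In the mitochondrial pair, log2 ratios within classes ran from -0.12 to 0.08 for Hspd1 and from -0.35 to -0.01 for Hspe1, which was lower beyond counting error in enterocyte-like (-0.35), crypt stem-like (-0.18) and no-class cells (-0.04). Past 1.5-fold between the sets, Hspa1a and Hspa1b were lower in enteroendocrine-like cells, where 12% of genes passed (4.16% higher and 7.85% lower), and in enterocyte-like cells, where 11.8% passed (5.09% higher and 6.69% lower). In crypt stem-like cells Dnajb14 was lower, as was Hspb1 by the fold alone, where 12.8% of genes passed (7.8% higher and 4.99% lower). In S phase cells Hspb1 was higher and Dnajb14 lower, where 9.22% passed (4.82% higher and 4.4% lower). Among dividing cells Hspa1a, Hspa1b and Hspb1 were higher and Dnajb14 lower, where 6.03% passed (2.74% higher and 3.29% lower). Among cells of no class Hspa1a and Hspa1b were higher and Dnajb14 lower, where 5.05% passed (2.35% higher and 2.7% lower).

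The Hspb1 calls within classes rest on few UMIs and fewer cells. Crypt stem-like cells had 17 UMIs in set 1, 76.5% of them in 3 cells, and 0 in set 2, and the counting interval of that ratio included 0. Dividing cells had 35 and 45 UMIs, of which 3 cells held 51.4% and 95.6%, and the log2 ratio of 0.79 became -0.78 without those cells. S phase cells had 16 and 69 UMIs, of which 3 cells held 62.5% and 69.6%, and the ratio went from 1.07 to 0.62 without them.

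**Figure D3:**
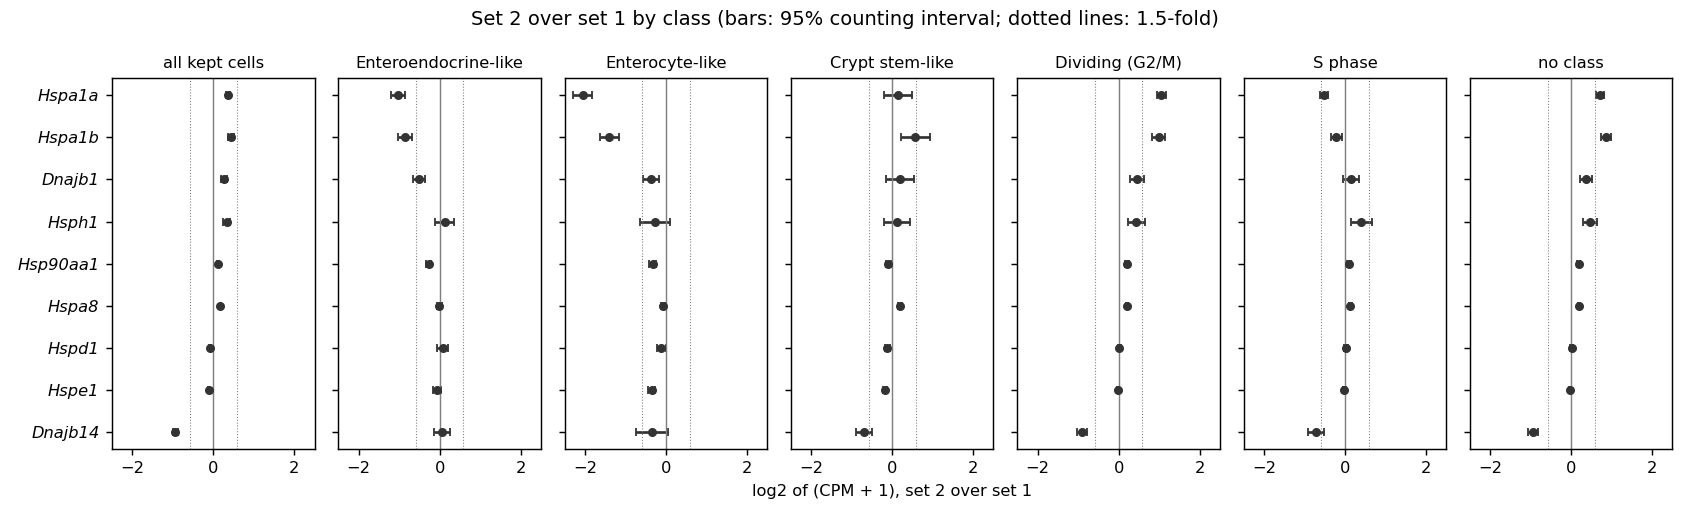
Log2 ratio of CPM plus 1, set 2 over set 1, of 9 genes (rows) in all kept cells and in each class of at least 50 cells per set (panels), with 95% counting intervals and dotted lines at 1.5-fold. The Hspa1a and Hspa1b points lie left of 0 in enteroendocrine-like and enterocyte-like cells and right of 0 in dividing cells and cells of no class, and Dnajb14 lies closest to 0 in enteroendocrine-like cells.

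The balance of the Hsp70 copies varied by class. Of the UMIs of both genes, Hspa1a made up 61.9% in set 1 (exact binomial interval 60.9 to 62.9) and 60.5% in set 2 (59.5 to 61.5). In S phase cells it made up 65.6% (63.4 to 67.6) and 60.7% (58.8 to 62.5). In enteroendocrine-like cells it made up 54.8% (52.2 to 57.3) and 51.7% (48.2 to 55.1), below S phase cells in both sets by more than the counting intervals. The lowest share was in enterocyte-like cells of set 2, 46.7% (42.0 to 51.5), where set 1 had 58.1%. The Hspd1 share of the mitochondrial pair kept to a narrower range, 36.0% to 42.4% over all classes and sets.

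Across cells, Hspa1a with Hspa1b and Hspd1 with Hspe1 had the highest correlations of the 45 pairs, as Pearson correlations of log2 counts per 10000 plus 1 over the 2300 and 1766 cells of a set, which share library and depth. Hspa1a and Hspa1b correlated at 0.68 in set 1 and 0.64 in set 2, at 0.66 and 0.63 after the mean of each class was removed, and at 0.40 and 0.30 with cells thinned to 2000 UMIs. Hspa1a and Dnajb1 correlated at 0.32 and 0.26, Hspa1a and Hsp90aa1 at 0.23 and 0.33, and Hspa1a and Hsph1 at 0.25 and 0.22. Hspd1 and Hspe1 correlated at 0.54 and 0.69, of which 0.38 and 0.48 remained within classes. With the mitochondrial pair the cytosolic members differed: Hspa8 correlated at 0.24 and 0.38 with Hspd1, Hsp90aa1 at 0.12 and 0.26, Hsph1 at 0.04 and 0.06, Hspb1 at 0.03 and 0.04, Hspa1a at -0.03 and 0.17, Hspa1b at -0.01 and 0.15, and Dnajb1 at -0.12 and -0.14. After class means were removed none of these was negative. Hspa8 was then at 0.23 and 0.32, Hsp90aa1 at 0.26 and 0.37, Hsph1 at 0.10 and 0.13 and Hspb1 at 0.01 and 0.03. Hspa1a was at 0.01 and 0.13, Hspa1b at 0.06 and 0.14 and Dnajb1 at 0.05 and 0.02.

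Dnajb14 correlated at -0.18 and -0.13 with Hspa1a, and its 9 correlations with other members lay between -0.18 and 0.12 in set 1 and between -0.13 and 0.08 in set 2. Over all 45 pairs the median was 0.12 in set 1 and 0.15 in set 2.

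**Figure D4:**
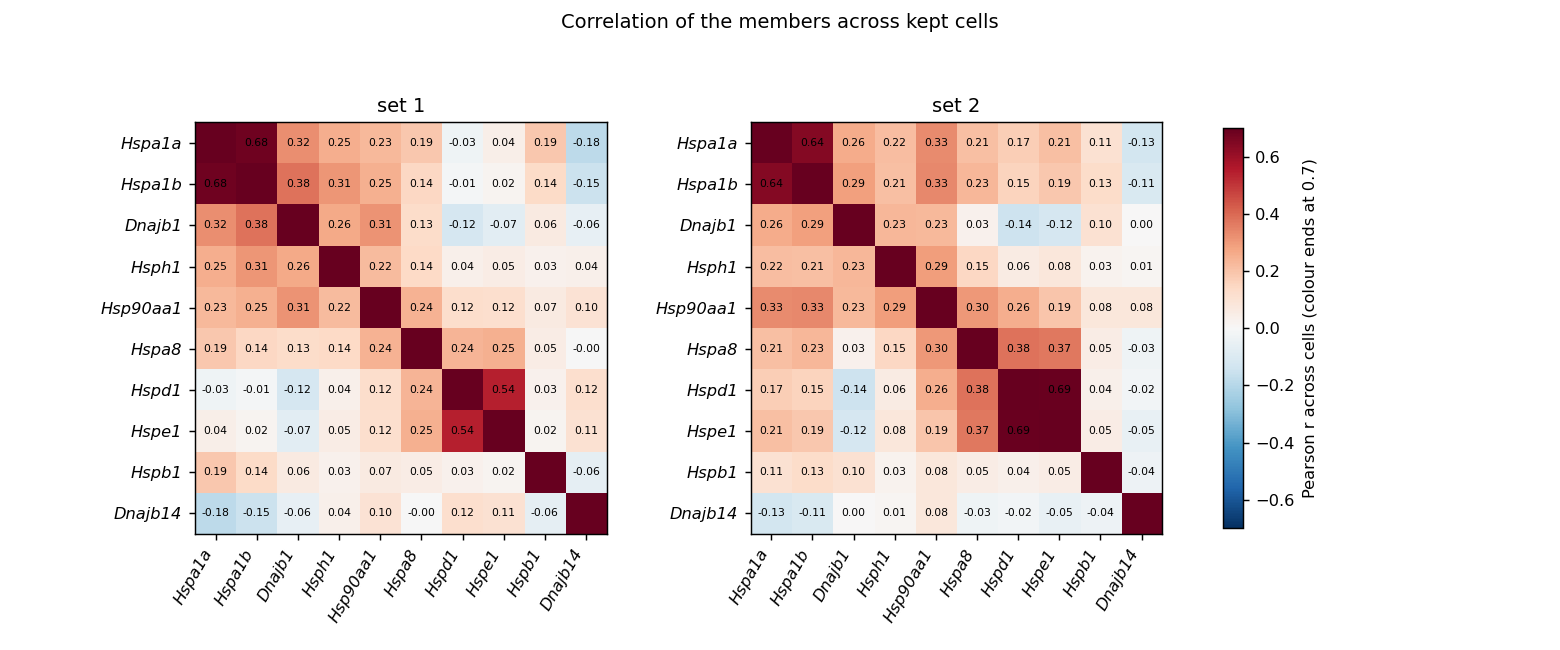
Pearson correlations between the 10 genes across the kept cells of set 1 (left) and set 2 (right), as numbers and colour, with the diagonal at 1 beyond the colour range. Hspa1a with Hspa1b and Hspd1 with Hspe1 are the darkest pairs in both sets, and Dnajb14 is slightly negative with Hspa1a and Hspa1b.

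Among 7348 other genes at 10 CPM or more, those whose pattern across cells was most like the summed Hsp70 genes were immediate early genes of transcription: Jun (r 0.30 in set 1 and 0.28 in set 2), Atf3 (0.31 and 0.28), Fosb (0.26 and 0.25), Fos (0.22 and 0.30) and Ier2 (0.22 and 0.29). The 19 genes of at least 10 CPM in the list of 21 immediate early genes had a median correlation of 0.21 and 0.17 with inducible Hsp70, where the median over all genes was 0.01 in both sets. Between the sets 5 of the 21 were past 1.5-fold, all higher in set 2, where 2.46% of all genes tested were: Nr4a1 (20.5 and 42.2 CPM), Fosl1 (2.01 and 5.09 CPM), Atf3 (226 and 369 CPM), Btg2 (167 and 262 CPM) and Dusp1 (65.9 and 99.9 CPM). Dissociation into single cells is known to induce both groups of genes, and its part in these values was not tested.

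For Hspd1, Hspa8 and Dnajb14 the most similar of those 7348 genes, which leave out the members, were of other kinds. No class means were removed from these correlations. Hspd1 levels also rose with the UMIs of a cell (Spearman correlation 0.45 and 0.42). Hspd1 lay closest to ribosomal protein genes, Rplp1 (0.57 and 0.66), Rps2 (0.57 and 0.65), Rpl12, Rps4x and Rplp0, all at 0.51 or more. Hspa8 lay closest to Phb2 (0.26 and 0.34), Nme1, Eif4a1, Slc25a5 and Snrpb. Dnajb14 lay closest to Marcks (0.29 and 0.26), Calm2, Hsp90b1, Hmgcs1 and Ywhaz. For Hspb1 no gene outside the members exceeded 0.1 in both sets (Tcim, Ier2, Rnf187, Snrpa and Mta3 led). Among the members it correlated at 0.19 and 0.11 with Hspa1a and at 0.14 and 0.13 with Hspa1b.

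Of the further chaperone genes 1 passed 1.5-fold between the sets, where 3.86% of all genes did. By list, these were 0 of 9 further Hsp70 and Hsp110 genes, 0 of 3 Hsp90 genes, 0 of 22 further J proteins, 0 of 3 small heat shock proteins, 0 of 7 subunits of the cytosolic TRiC chamber, 0 of 6 HSF genes and regulators, 0 of 13 chaperones of the endoplasmic reticulum and 0 of 9 genes of mitochondrial protein folding and turnover. Of 20 cochaperones, Fkbp5, an Hsp90 cochaperone, alone passed, at 7.14 and 12.7 CPM (0.76). Hspa5, the Hsp70 of the endoplasmic reticulum, was at 433 and 567 CPM (0.39), about as far apart as Hspa1a, and Hsf1 itself was at 13.4 and 14.1 CPM (0.07). Medians of these chaperone lists lay between -0.17 and 0.14.

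Barcodes with a high mitochondrial share, a common sign of damaged cells, differed from those with a low one in ways that depended on the gene, the set and the averaging. As CPM over non-mitochondrial UMIs, the summed Hsp70 genes were at 231 in barcodes of set 1 with up to 5% and at 180 in those over 50%, but in set 2 at 234 and 316, which are log2 ratios of -0.36 and 0.43. With the mean of the cells' own CPM those ratios were 0.06 and 0.75, and Hspa1b in set 1 went from -0.28 to 0.24. Hspe1 was at 916 and 890 in set 1 and at 689 and 508 in set 2. Dnajb14 was at 87.8 and 126 in set 1 and at 51.3 and 64.9 in set 2, so that it stayed lower in set 2 at both ends.

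Past 1.5-fold between those ends, 2 members were lower in set 1 (Hspb1 and Dnajb1) and in set 2 Hspa1b was higher and Hspb1 lower, where 42.6% of 12120 genes passed in set 1 (26.9% higher and 15.8% lower) and 56.3% of 12023 in set 2 (33% higher and 23.3% lower). Hspb1 had only 9 and 14 UMIs at the ends of set 1, with overlapping intervals, and 23 and 9 in set 2. With the mean of the cells' own CPM its set 1 ratio was -0.56, no longer past the fold. Hspa1a in set 2 then went from 0.29 to 0.61, past it, and Dnajb14 in set 1 from 0.52 to 0.05. The lowest bin held 98 and 101 barcodes and the highest 3643 and 1785, with median non-mitochondrial UMIs of 14269.5 and 15360 in the lowest and 1295 and 1774 in the highest.

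**Figure D5:**
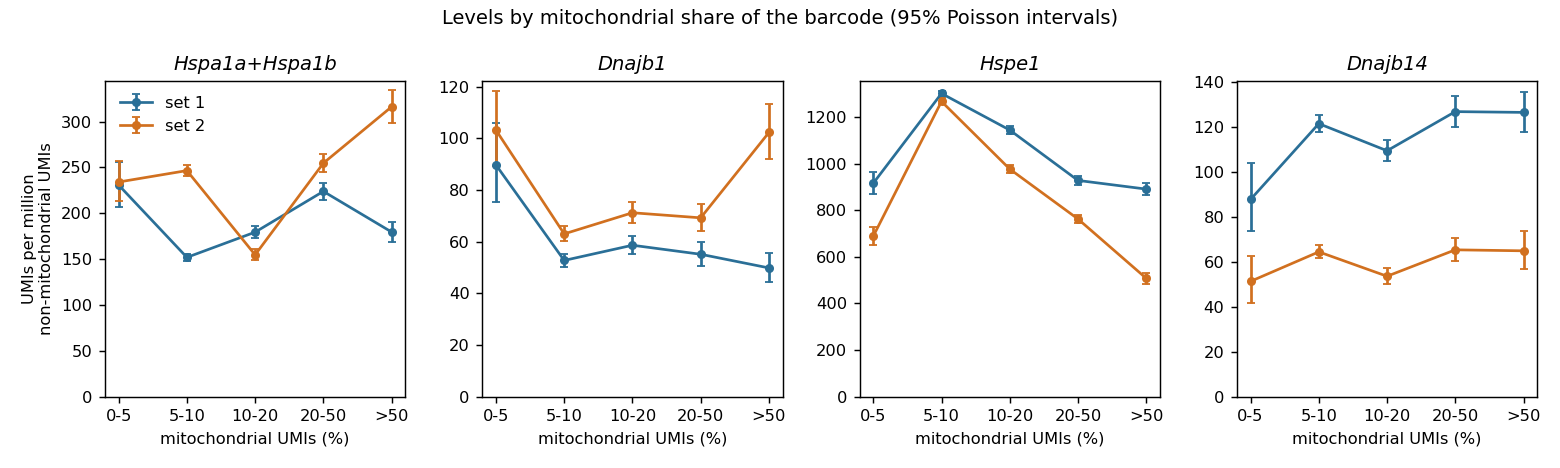
CPM over non-mitochondrial UMIs of 4 genes or sums (panels) in 5 bins of the mitochondrial share of a barcode, for set 1 (blue) and set 2 (orange), with 95% Poisson intervals. Dnajb14 is lower in set 2 in each bin, and the summed Hspa1a and Hspa1b level ends at 180 in set 1 and at 316 in set 2.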

How the data were processed

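Per the labels' protocols, cells of 3 organoid lines per group were pooled on culture day 3 and sequenced as 10x 3′ libraries (version 3 chemistry) on an Illumina instrument. The submitters' processing notes name Cell Ranger 3.1.0, STAR 2.7.3a and bcl2fastq 2.20.0, and genome build and annotation are not given in the sources used here. The deposited matrix holds whole UMI counts per gene and barcode without normalization, and the kept cells held 58.1% of its UMIs. The 10 members and all lists were chosen with earlier results of these data known.

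From these counts, levels were computed as CPM with exact Poisson intervals and shares with exact Clopper-Pearson intervals, all at 95%. Log2 ratios were taken after adding 1 to each CPM value, so ratios of low genes are understated. A gene was past the fold at 1.5-fold or more with at least 10 UMIs. With 1 library per group, identical files for both and no label tying a barcode suffix to a treatment, no test was run. A cell's class came from the mean z-score of log2(counts per 10000 + 1) over fixed markers, scaled again over all kept cells, with a gate at 1. No doublet caller was run: cells over several gates and the 5% of cells with the most UMIs were left out as alternatives. Shares at fixed depth are expected values after thinning to 2000 UMIs.

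All members are named, as are the 5 genes of at least 10 CPM with the highest lower-of-both-sets correlation to the summed Hsp70 genes, Hspa8, Hspd1, Hspb1 and Dnajb14, and list genes of large ratio. Hspa5 and Hsf1 were named for their roles after their values were seen, as were Fosl1 and the other immediate early genes past the fold. Alternatives covered pseudocounts, mitochondrial limits, averaging of cells, low-count filters, thinning and gates. Ratios were also computed on simulated Poisson counts. These were drawn as sums without variation between cells, so they cannot show how ratios behave where few cells hold the counts. Tools were Python 3.11.15, numpy 2.4.6, scipy 1.17.1, pandas 2.3.3 and matplotlib 3.10.9.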

Additional observations from a re-analysis of the deposited data

Results flagged for a closer look

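Within-class ratios of the summed Hspa1a and Hspa1b level stood out because classes of the same barcode sets moved in opposite directions past 1.5-fold. On the log2 scale, set 2 over set 1, enteroendocrine-like cells were at -0.95 and enterocyte-like cells at -1.76, while dividing cells were at 1.04 and cells of no class at 0.76. In cells with mitochondrial shares of 10% to 20% the enteroendocrine-like (293 and 267 CPM) and dividing (91.5 and 89.9 CPM) levels of the sets overlapped within their counting intervals. The difference between the classes was not tested, since each set is a single pool.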

How the results depend on the processing

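No paired analysis was possible because the labels give 1 library per group and the files of both are identical. Of 408 values under alternative settings 311 stayed within the counting interval or within 1.5 times the count, and 3 called values changed sign, all of Hspb1 in dividing cells: its ratio of 0.79 became -0.10 with the mean of the cells' own CPM, -0.78 without the 3 cells with the most UMIs and -0.59 with a gate of 1.5. The log2 ratio of each member and of the Hsp70 sum kept its sign in 8 of 8 alternatives, and the within-class ratios of that sum in all that gave a value.

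The 2 members past 1.5-fold between the sets became 1 with a pseudocount of 10 CPM, 1 with the mean of the cells' own CPM, 1 among genes of at least 10 CPM, 4 with a mitochondrial limit of 10% (Hspa1a at 0.68 and Hspa1b at 0.64 joined) and 0 at a fold of 2. In enterocyte-like cells 4 became 1 with the 10% limit, where the class was assigned anew and held in part other cells. Among cells of no class 1 became 0 with a pseudocount of 10 CPM, and among dividing cells 0 became 1 with the mean of the cells' own CPM. The share of Hsp70 UMIs in the top 5% of cells, 57.5% and 41.6%, became 55.7% and 36.0% with the 10% limit, 68.0% and 48.6% with no mitochondrial limit, and 64.2% and 51.7% at 2000 UMIs per cell, and in set 2 43.6% without the 5% of cells with the most UMIs. The correlation of Hspa1a with Hspa1b became 0.76 in set 1 with the 10% limit, 0.47 and 0.51 with no limit, and 0.40 and 0.30 at 2000 UMIs per cell. The cause of these shifts and sign changes was not tested.

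The within-class ratio of the Hsp70 sum ran from -1.20 to -0.53 in enteroendocrine-like cells (-0.53 with cells over several gates left out), from -1.77 to -0.38 in enterocyte-like cells and from 0.70 to 1.37 in dividing cells. The -0.38 came with the 10% limit, where the enterocyte-like class held in part other cells. The ratio of Dnajb1, not past the fold, changed sign in 1 alternative each in crypt stem-like (-0.47) and S phase cells (-0.13), and that of Hspb1 with the 10% limit in cells of no class (-0.62), enteroendocrine-like (-0.06) and enterocyte-like cells (0.55). Hspb1 exceeded Dnajb14 in size between the sets with a pseudocount of 0.1 CPM and with the 10% limit (0.95 against -0.90). Crypt stem-like cells were too few for a value with the 10% limit and with a gate of 1.5. The class-mix weighting, the fold of 2 and the within-class alternatives were chosen after seeing the data. Depth limits Hspb1 above all, with 113 and 192 UMIs.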
